A study of Mus musculus with 2 samples.

Results

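Of 9817 mouse genes whose promoters are rich in CpG dinucleotides, 127 had no open chromatin at any start in the embryonic liver lists used. Other deposited lists of the same tissue, described near the end, had signal at 22 of the 127. DNase-seq measures open chromatin: the nuclease DNase I cuts accessible DNA in nuclei, and the cut ends are sequenced. The 127 genes were selected on these measured values. A gene counted if it was protein-coding and autosomal, if the observed number of CpG dinucleotides in 1000 bp around its 5′ end was at least 0.6 of the number expected from base content, and if no peak or hotspot lay within 1 kb of an annotated start. A peak is a narrow site of dense cutting, and a hotspot is a broader region of raised cutting, both as the authors called them. A chosen peak list and a chosen hotspot list of each library were used. The 127 are 1.29% of the CpG-rich genes (95% Clopper-Pearson interval 1.08% to 1.54%) and come from 20807 autosomal protein-coding genes in all. Intervals here cover counting error only, and since absence from the lists chose the members, that absence is a description and was not tested.

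The tissue was liver of B6NCrl mouse embryos at embryonic day 11.5, male and female pooled. The 2 libraries, numbered technical replicate 7 and technical replicate 1, came from 1 biosample, so there is 1 biological sample, no other group and no p-value. The liver at this age is a blood-forming organ as well as a budding gland, and its nuclei come from erythroid, hepatoblast, endothelial, mesenchymal and macrophage cells. A site absent from the lists used is thus one without a call in those lists for the mixture. A site open in few cells and a site closed in all of them cannot be told apart.

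Most vertebrate promoters of high CpG content are kept free of DNA methylation and are accessible in nearly every cell type, whether or not the gene is transcribed. The exceptions known from other work include genes of the germline, whose CpG-rich promoters are methylated in body cells. The clustered protocadherins, whose alternative promoters are chosen cell by cell, are another. DNA methylation and protein binding were not measured here.

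Promoter sequences of members from 6 gene groups follow, each the member of highest CpG ratio in its list or family. They show what a closed CpG-rich promoter looks like as sequence. Each runs 5′ to 3′ on the gene's strand from 250 bases before to 50 bases after the annotated 5′ end, with every CpG in capitals. Coordinates are on mm10, and bases were read from the RefSeq assembly GRCm38.p6. Ddx4 encodes the germ cell RNA helicase VASA, Sycp1 a protein of the synaptonemal complex, Slc25a31 an ADP/ATP carrier of sperm, Hoxc12 a homeobox factor, Kcnk9 the potassium channel TASK-3 and Hist1h2ap a histone H2A.
Ddx4 (chr13:112652426-112652725, minus strand): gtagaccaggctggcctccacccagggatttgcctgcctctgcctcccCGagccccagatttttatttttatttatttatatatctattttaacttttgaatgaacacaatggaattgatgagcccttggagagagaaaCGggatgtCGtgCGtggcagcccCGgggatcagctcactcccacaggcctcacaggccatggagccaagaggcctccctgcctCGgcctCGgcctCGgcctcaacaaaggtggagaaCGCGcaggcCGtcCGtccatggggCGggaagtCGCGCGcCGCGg
Sycp1 (chr3:102936051-102936350, minus strand): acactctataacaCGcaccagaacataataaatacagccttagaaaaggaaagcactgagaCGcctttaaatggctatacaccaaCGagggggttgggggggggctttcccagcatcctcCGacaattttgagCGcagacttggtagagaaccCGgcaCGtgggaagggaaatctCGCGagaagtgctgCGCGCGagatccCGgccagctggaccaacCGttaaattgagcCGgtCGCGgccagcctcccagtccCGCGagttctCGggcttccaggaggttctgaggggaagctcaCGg
Slc25a31 (chr3:40708605-40708904, plus strand): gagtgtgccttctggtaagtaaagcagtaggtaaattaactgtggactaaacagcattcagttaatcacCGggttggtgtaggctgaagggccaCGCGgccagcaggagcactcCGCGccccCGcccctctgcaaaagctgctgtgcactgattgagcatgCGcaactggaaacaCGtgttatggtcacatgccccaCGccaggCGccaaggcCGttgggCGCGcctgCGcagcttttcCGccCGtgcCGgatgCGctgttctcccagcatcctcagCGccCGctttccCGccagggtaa
Hoxc12 (chr15:102936507-102936806, plus strand): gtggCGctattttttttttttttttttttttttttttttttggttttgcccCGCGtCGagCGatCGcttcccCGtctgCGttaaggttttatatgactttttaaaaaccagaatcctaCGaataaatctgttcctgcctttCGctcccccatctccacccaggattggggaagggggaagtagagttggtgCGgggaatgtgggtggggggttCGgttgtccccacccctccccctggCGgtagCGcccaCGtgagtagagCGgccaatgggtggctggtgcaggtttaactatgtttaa
Kcnk9 (chr15:72546291-72546590, minus strand): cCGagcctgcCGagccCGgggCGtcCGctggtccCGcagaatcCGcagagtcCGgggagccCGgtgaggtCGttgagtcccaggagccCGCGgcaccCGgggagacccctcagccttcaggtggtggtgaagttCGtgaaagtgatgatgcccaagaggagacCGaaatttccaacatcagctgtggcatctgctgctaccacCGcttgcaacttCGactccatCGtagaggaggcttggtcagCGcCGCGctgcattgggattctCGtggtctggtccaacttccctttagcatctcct
Hist1h2ap (chr13:21833458-21833757, minus strand): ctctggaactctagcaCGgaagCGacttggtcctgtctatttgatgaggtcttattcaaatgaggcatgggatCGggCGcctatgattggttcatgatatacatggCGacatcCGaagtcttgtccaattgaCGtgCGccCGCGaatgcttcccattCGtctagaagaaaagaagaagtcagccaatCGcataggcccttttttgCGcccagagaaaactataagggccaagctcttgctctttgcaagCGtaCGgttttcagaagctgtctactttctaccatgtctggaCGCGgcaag

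These stretches of 300 bases held 18 CpG dinucleotides in Ddx4, 21 in Sycp1, 21 in Slc25a31, 16 in Hoxc12, 22 in Kcnk9 and 17 in Hist1h2ap. Not every member looks like them. The ratio of observed to expected CpG is corrected for base content, so that an AT-rich sequence can pass the limit with few CpG. Gm10721, a predicted gene on chromosome 9, had a ratio of 0.716 with 20 CpG in 1000 bp, a GC content of 34.5%, and 97.2% of its promoter window of 2001 bp masked as repeats in the assembly. Its 100 bases around the 5′ end are shown as a contrast and hold 1 CpG.
Gm10721 (chr9:3013090-3013189, plus strand): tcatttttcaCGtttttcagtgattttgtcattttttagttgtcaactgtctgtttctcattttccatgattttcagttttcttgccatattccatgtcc

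The members fell apart by how often their sequence recurs in the genome. For each promoter window of 2001 bp the share of 36-base words found more than once on the assembly's chromosomes was counted. This share was at most 10% in 45 members, called single-copy here, between 10% and 50% in 20, called partly repeated, and above 50% in 62, called mostly repeated. Among CpG-rich genes, 45 of 9196 with single-copy windows were members (0.489%, interval 0.357% to 0.654%), against 20 of 520 with partly repeated windows (3.85%, 2.36% to 5.88%) and 62 of 101 with mostly repeated ones (61.4%, 51.2% to 70.9%). Mostly repeated windows made up 48.8% of members, 0.402% of the 9690 open CpG-rich genes and 15.9% of the 5382 closed genes of lower CpG content. How the authors treated reads that fit several places is not given in the sources used here. At a repeated window, closed chromatin and reads that could not be placed cannot be told apart.

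**Figure D1:**
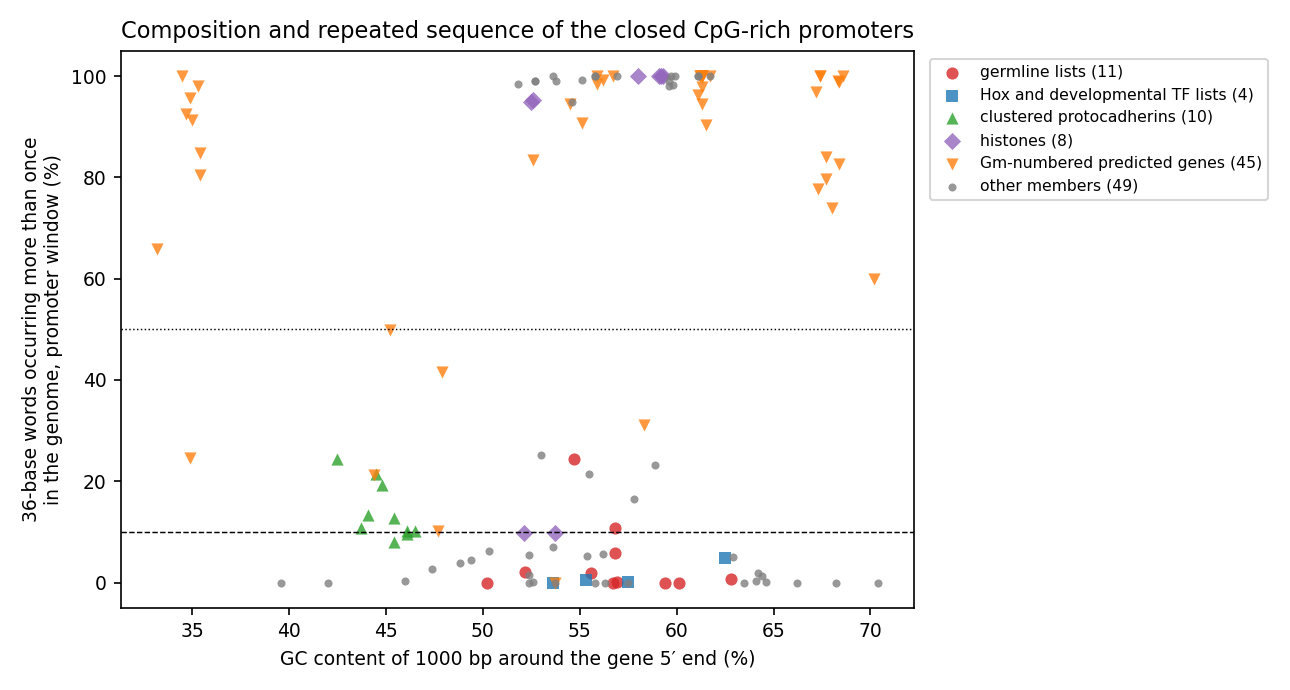
Each point is 1 of the 127 members, by the GC content of 1000 bp around its 5′ end (x axis, %) and the share of 36-base words in its 2001 bp window that occur more than once in the genome (y axis, %), with lines at 10% and 50%. Of the 45 predicted genes with Gm numbers 38 lie above 50%, while 9 of the 11 members from germline lists lie under 10%.

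Base composition differed between these groups too. GC content had a median of 55.4% in single-copy members (range 39.6% to 70.4%), 46.3% in partly repeated ones and 59.5% in mostly repeated ones, against 61.5% in open CpG-rich genes with single-copy windows. The CpG ratio of single-copy members had a median of 0.679, with Ly6k lowest at 0.601 and 4933428G20Rik highest at 0.929; the open genes with single-copy windows had a median of 0.785. Of all members, 29 (22.8%) had a GC content under 50%, against 2.85% of open CpG-rich genes, and 10 were under 40%. These 10 were 9 predicted genes, among them the run of 7 on chromosome 9 that holds Gm10721, and Tlr6, a receptor for bacterial lipopeptides with a single-copy window.

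Germline genes of several stages were among the members. From 4 lists with 118 genes of the germline, 48 were autosomal and CpG-rich, and 11 of these were members (22.9%, interval 12% to 37.3%), against 1.29% of all CpG-rich genes. They were Mael, Asz1 and Ddx4 of the piRNA pathway, which silences transposons in germ cells, Sycp1, Sycp2, Sycp3, Tex12 and Hormad1 of the meiotic chromosome axis and synaptonemal complex, the testis kinase Stk31, and Slc25a31 and Rpl10l, the latter an autosomal copy of an X-linked ribosomal protein gene. All 3 CpG-rich Sycp genes were closed. Of the 11, 9 had single-copy windows; Stk31 (10.8% repeated words) and Rpl10l (24.4%) were partly repeated. With a stricter CpG ratio of 0.75 the germline share was 1 of 18 (5.56%), since Slc25a31, at 0.754, was the highest of the 11.

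The other 37 CpG-rich germline genes were open, 32 of them with a peak in both libraries. They included Dazl, an RNA-binding protein needed for germ cell development, Dmc1, the meiotic recombinase, Stag3, a meiotic cohesin subunit, and Prdm9, which marks recombination sites. Mov10l1, an RNA helicase of the piRNA pathway, was kept out of the members by a hotspot of technical replicate 7 alone. Closed and open germline genes had median CpG ratios of 0.694 and 0.736 and median GC contents of 56.8% and 60.2%. Several further members with known germline roles were outside the lists and were picked out after their values were seen: Pnldc1, the trimming nuclease of piRNAs, Fkbp6, a cochaperone needed in male meiosis, Ankrd31, a meiotic recombination factor, and Hist1h2ba and Hist1h2aa, histones H2B and H2A of the testis.

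**Figure D2:**
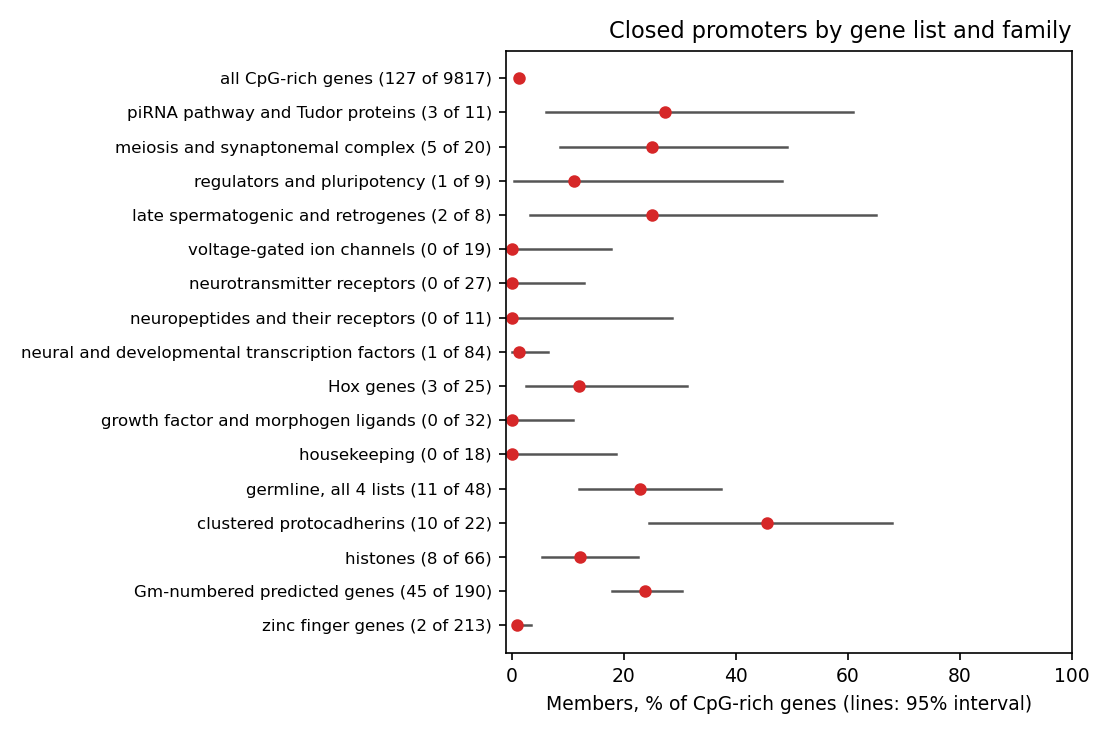
Points give the members as a percentage of the CpG-rich genes of each list or family (x axis), lines the 95% Clopper-Pearson interval, and the labels the counts. Of the groups drawn, clustered protocadherins are highest at 45.5%, the 4 germline lists lie between 11.1% and 27.3%, and 5 lists, among them housekeeping genes, are at 0.

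Lists of neuronal, developmental and signalling genes other than the Hox list held 1 member, a count near what the 1.29% of all CpG-rich genes gives. No member was found among 19 CpG-rich voltage-gated ion channels (a count of 0 allows up to 17.6% by the same interval), 27 neurotransmitter receptors (up to 12.8%), 11 neuropeptides and their receptors (up to 28.5%), 32 growth factor and morphogen ligands (up to 10.9%) or 18 housekeeping genes (up to 18.5%). Of 84 CpG-rich neural and developmental transcription factors, 1 was a member, Nkx2-1, a regulator of lung, thyroid and forebrain (1.19%). In the lists of technical replicate 1 alone, where 262 of all CpG-rich genes were closed (2.67%), 8 of the 84 factors were closed, as were 3 of the 27 receptors, 3 of the 11 neuropeptide genes, 2 of the 32 ligands and 1 of the 19 channels. Among potassium channels Kcnk9 was the member of 36 (2.78%). Single-copy members of like roles outside those lists, named after their values were seen, were the homeobox genes Evx1 and Dbx1, the mesoderm factor T (brachyury), the activating protein 2 family gene Tfap2d, the corepressor Skor2 and the neuronal RNA-binding protein gene Elavl3.

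Of 25 CpG-rich Hox genes, the homeobox factors that pattern the embryo from head to tail, 3 were members (12%, interval 2.55% to 31.2%): Hoxc12, Hoxc9 and Hoxc8. The share was 1.29% over all CpG-rich genes and 0.489% over those with single-copy windows, which all 25 had. In the lists of technical replicate 1 alone 13 of the 25 were closed, against 2.67% of all CpG-rich genes. Thus 10 were open only through technical replicate 7. Along the Hoxc cluster on chromosome 15 the members did not form an unbroken run. From Hoxc12 (5′ end at 102936757) to Hoxc8 (102990607), Hoxc11 was open by a hotspot of technical replicate 1 alone, and Hoxc10 and Hoxc5, whose CpG ratios of 0.594 and 0.565 are under the limit, had peaks in both libraries.

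The clustered protocadherins encode adhesion proteins that give neurons a surface identity, and each alternative initial exon has its own promoter. Of 22 CpG-rich genes in the family 10 were members (45.5%, interval 24.4% to 67.8%), against 1.29% of all CpG-rich genes. All 10 were of the alpha cluster. The alpha cluster had 12 CpG-rich genes in the annotation, among which the annotation gives the symbol Pcdha11 to a pair of separate genes. The exceptions were Pcdha9 and Pcdhac2, each listed by technical replicate 7 and not by a peak of technical replicate 1. None of the 10 CpG-rich genes of the gamma cluster was closed, and the beta cluster had no CpG-rich gene. In the lists of technical replicate 1 alone all 12 alpha genes and 6 of the 10 gamma genes were closed. The share over all CpG-rich genes in those lists was 2.67%. Those 6 gamma genes were open only through technical replicate 7. The 10 alpha members had GC contents of 42.5% to 46.5%, below the members' median of 55.9%. Their CpG ratios were highest in Pcdha6 (0.748), Pcdha7 (0.733), Pcdha5 (0.722) and Pcdha8 (0.705). Their repeated shares ran from 7.99% in Pcdha1 to 24.4% in Pcdha7; the exons resemble each other, so these promoters are not independent sequences. With Gm42416, a predicted gene that starts 93 bp from Pcdha4, they formed the largest cluster of members, 11 genes over 80.5 kb.

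Histone genes and predicted genes made up most of the repeated members. Of 66 CpG-rich replication-dependent histone genes 8 were members (12.1%, interval 5.38% to 22.5%), against 1.29% of all CpG-rich genes. Of these, 6 formed a mirrored set on chromosome 13 within 23.5 kb (Hist1h2bq, Hist1h2ao and Hist1h4m against Hist1h4n, Hist1h2ap and Hist1h2br) with 94.9% to 100% repeated words. Their CpG ratios were among the highest of all members, with 0.939 in Hist1h2ap. The remaining 2 were the testis pair Hist1h2ba and Hist1h2aa, whose starts lie 306 bp apart. Among 190 CpG-rich predicted genes with Gm numbers 45 were members (23.7%), or 35.4% of all members, and 1 of the 45, Gm28308, had a single-copy window. Those with the highest CpG ratios, Gm21863, Gm3435, Gm3448 and Gm3417, had mostly repeated windows.

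A few well-known genes were members inside duplicated blocks. Slc25a37 encodes mitoferrin, which imports iron into mitochondria of red cell precursors, a main cell type of this organ. Its window on chromosome 14 consisted to 100% of repeated words, and Gm16867, 218 kb away on the same strand, had the same CpG ratio of 0.719 and GC content of 61.7%. Its neighbour Entpd4 and the copy Entpd4b likewise shared a ratio of 0.804 and a GC content of 61.1%, and Loxl2, a lysyl oxidase, had 98.2% repeated words. Srp54b and Srp54c, copies of a signal recognition particle gene, and the Plac9 and Tmem254 copies (Tmem254a, Tmem254b and Tmem254c) were of the same kind. For these genes too, closed chromatin and reads that could not be placed cannot be told apart. Of the 37 gene families examined, 32 had a CpG-rich gene and 13 had a member. Zinc finger genes had 2 of 213 (0.939%), Zfp433 and Zfp781, both mostly repeated, against 1.29% of all CpG-rich genes. FAM genes had 1 of 102, the mostly repeated Fam177a, and Fox genes 1 of 29, the single-copy Foxr1. The Prame family had 1 of its 2 CpG-rich genes, Pramel1, with 7.02% repeated words, and the fourth transmembrane gene beside the Tmem254 copies was the single-copy Tmem132d.

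Members often lay next to each other. In the order of CpG-rich genes along the chromosomes, the following gene was closed for 56 of 125 members (44.8%, interval 35.9% to 54.0%) and for 69 of 9673 open genes (0.713%, 0.555% to 0.902%). With single-copy genes alone these shares were 3 of 44 (6.82%, 1.43% to 18.7%) and 42 of 9133 (0.460%, 0.332% to 0.621%). In 9 of the 56 pairs, such as Pcdha4 with Gm42416 and Tcte3 with Gm3448, the genes' promoter windows share bases, so that their states are not separate measurements. Among next genes that share no window, 47 of 116 members (40.5%, 31.5% to 50%) and 67 of 8573 open genes (0.782%) had a closed one. With single-copy genes alone these counts were 2 of 43 (4.65%, 0.568% to 15.8%) and 41 of 8107 (0.506%), the pair left out being Hist1h2ba and Hist1h2aa. When members up to 100 kb apart were joined, 53 (41.7%) fell into 10 clusters of 3 or more, of which 36 were mostly repeated, 12 partly repeated and 5 single-copy (Hoxc12, Hoxc9, Hoxc8, Pcdha1 and Pcdha2). Besides the alpha protocadherins, the large clusters were 8 predicted genes on chromosome 4 (Gm13289 to Gm13287, 26.3 kb), 7 on chromosome 9 (Gm10722 to Gm10715, 36 kb), the 6 histones, 5 genes on chromosome 17 with Tcte3, a dynein light chain gene, and 9030025P20Rik (63.1 kb), and 4 on chromosome 12, Fam177a, Srp54b, 1700047I17Rik2 and Srp54c (106 kb). Clusters of 3 were Gm4767, Gm32687 and Zfp781 on chromosome 10 (118 kb) and Gm16867, Entpd4b and Loxl2 on chromosome 14 (106 kb), beside the Hoxc and Prr23a genes. Of the 64 members that stood alone, 38 were single-copy. Chromosome 14 held 23 members among 362 CpG-rich genes (6.35%), against 1.29% over all autosomes, and none of the 23 was single-copy. Chromosomes 8, 16 and 19 held none among 563, 325 and 340 CpG-rich genes.

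Sequence motifs were counted from 250 bases before to 50 bases after the 5′ end. The motifs were 14 consensus strings searched on both strands; a match is a description of letters, not of binding. The E-box CACGTG, read by factors such as MYC, MAX and USF, was in 7 of the 11 germline members (63.6%, interval 30.8% to 89.1%). It was in 7 of the 37 open germline genes (18.9%, 7.96% to 35.2%), in 1069 of 9690 open CpG-rich genes (11.0%) and in 7.82% of all 20807 genes. The string GCGGGAA, an E2F site, was in 6 of the 11 (54.5%, 23.4% to 83.3%), against 6 of the 37 (16.2%, 6.19% to 32.0%) and 9.92% of open CpG-rich genes. It can overlap the GC box GGGCGG, as it did in Ddx4. In all, 9 of the 11 held at least 1 of these strings, against 11 of the 37 open germline genes (29.7%). The exceptions were Asz1 and Sycp2. The germline comparison was made with the values of the 14 strings in view, and no difference was tested. The E-boxes of the germline members are shown with 12 bases to each side and the E-box in capitals; the site nearest the 5′ end is given where there are several.
Hormad1 (chr3:95559645-95559674, plus strand): atgcgcactgcgCACGTGctgaccggagcg
Mael (chr1:166238950-166238979, minus strand): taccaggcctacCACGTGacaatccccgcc
Slc25a31 (chr3:40708766-40708795, plus strand): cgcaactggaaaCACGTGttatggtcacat
Stk31 (chr6:49395472-49395501, plus strand): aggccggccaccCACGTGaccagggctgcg
Sycp1 (chr3:102936177-102936206, minus strand): tagagaacccggCACGTGggaagggaaatc
Sycp3 (chr10:88459532-88459561, plus strand): acgggcatggagCACGTGctaggaggcggg
Tex12 (chr9:50561344-50561373, minus strand): ccgcgagactgtCACGTGgctcgcgcgctg

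The flanks differed from gene to gene, and so did the distance to the 5′ end. Counted from that end, with upstream positions negative, the E-box began at -20 in Hormad1, -25 in Sycp3, -36 in Tex12, -77 in Slc25a31, -94 in Sycp1, -120 in Stk31 and -220 in Mael. Hormad1 and Sycp3 held 2 each. Hormad1 and Stk31 also held the NRF1 string GCGCATGCG, which was in 4.14% of open CpG-rich genes.

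Shares of other strings in the single-copy members stood on either side of those in open CpG-rich genes. The GC box GGGCGG, bound by SP and KLF factors, was in 46.7% of the 45 single-copy members (interval 31.7% to 62.1%) and 70.7% of open CpG-rich genes, and 8 of the 11 germline members held it (72.7%, 39.0% to 94.0%). The TATA box TATAAA was in 26.7% of single-copy members (12 of 45) and 6.08% of open CpG-rich genes, with 12.7% among all genes. It began at -33 in Elavl3 and at -31 in Dbx1; in other members, such as Sycp2 at -226, it lay elsewhere. The CCAAT box was in 42.2% of single-copy members (27.7% to 57.8%) and 38.0% of open CpG-rich genes. It was in 2 of the 11 germline members (18.2%), Mael and Sycp3, and in 21 of the 37 open germline genes (56.8%). Strings for CREB (TGACGTCA), REST (TTCAGCACC) and CTCF (a core of 14 bases) were in none of the single-copy members, where their shares in open CpG-rich genes were 3.97%, 0.433% and 0.0516%.

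**Figure D3:**
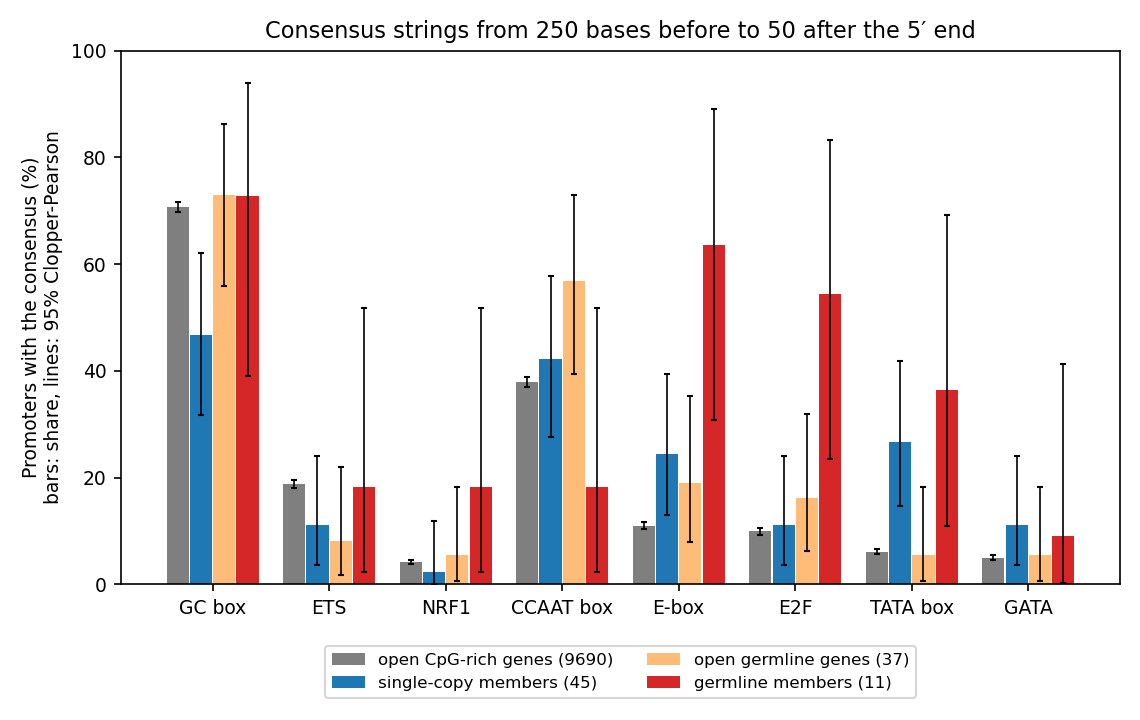
Bars give the share of promoters (y axis, %) that hold each of 8 of the 14 strings in open CpG-rich genes, single-copy members, open germline genes and germline members, with 95% Clopper-Pearson intervals as lines. E-box and E2F bars are highest for germline members at 63.6% and 54.5%, and the GC box is lowest for single-copy members at 46.7%.

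Open chromatin away from promoters was near most single-copy members. A distal peak was one centred over 1 kb from every annotated start of any gene, and those within 50 kb of the gene's 5′ end were counted. In technical replicate 7, 72 of 127 members (56.7%, interval 47.6% to 65.5%) had at least 1, against 95.1% of open CpG-rich genes, 57.6% of closed genes of lower CpG content and 91.2% of open ones of lower CpG content. In technical replicate 1 the shares were 35.4% of members and 68.7% of open CpG-rich genes. Single-copy members had a distal peak of technical replicate 7 in 42 of 45 cases (93.3%, 81.7% to 98.6%), close to the 95.4% of open CpG-rich genes with single-copy windows, with medians of 3 and 5 peaks. Partly and mostly repeated members had one in 40% and 35.5% of cases. Closed genes of lower CpG content with single-copy windows had one in 68.5% of cases.

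The single-copy members without a distal peak of technical replicate 7 were 4933416C03Rik, Pcdha1 and Pcdha2. For 27 of the 45, a distal peak was shared by the libraries, and 18 had no distal peak in technical replicate 1. Most distal peaks of single-copy members were counted at Ppm1n, a protein phosphatase gene, with 16 in technical replicate 7 and 10 in technical replicate 1, at 4933428G20Rik with 13 and 10, at Plk5, a polo-like kinase gene, with 12 and 4, and at Kdf1, a keratinocyte differentiation factor gene, with 10 and 3. Elavl3 had 8 and 5, Gm28308 had 8 and 0, and Gsg1l had 7 and 2. Among repeated members, 1700029P11Rik had 8 and 3 and Hist1h2ap 7 and 5. BC107364, mostly repeated, had 27 and 16, the most of all members. Of the 11 germline members 10 had a distal peak in technical replicate 7, with a median of 3, the same median as in the 37 open germline genes. Rpl10l was without one.

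The nearest peak of any kind lay a median of 22 kb from the members' 5′ ends in technical replicate 7 and 42.7 kb in technical replicate 1. In single-copy members these medians were 7.03 kb and 13.6 kb. The peak nearest to Dbx1 lay 1180 bp downstream of the 5′ end in technical replicate 7 (density 0.344) and 35314 bp away in technical replicate 1. For Elavl3 the distances were 1191 bp (density 1.90) and 1175 bp (density 2.07). The density is the authors' own highest DNase cut density of a peak, on a scale that the files do not state, with a median over all peaks of 0.501 in technical replicate 7 and 1.06 in technical replicate 1. For Hoxc8 the peak 2897 bp upstream in technical replicate 7 had a density of 2.32, and technical replicate 1 had one at 2847 bp with 2.17. Both Hoxc8 peaks were thus well above their library's median.

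In technical replicate 7 the nearest peak lay a median of 20814 bp from the 11 germline members. This median was 7029 bp in single-copy members and 22018 bp in all members. Of the 11, 8 lay farther from a peak of that library than the single-copy median. There the distance was 1937 bp for Stk31, 6219 bp for Ddx4, 6686 bp for Sycp2, 14067 bp for Slc25a31, 15185 bp for Mael, 20814 bp for Tex12, 21559 bp for Asz1, 27994 bp for Sycp1, 28990 bp for Hormad1, 32849 bp for Sycp3 and 352240 bp for Rpl10l. In technical replicate 1 the closest were Sycp2 at 6844 bp and Ddx4 at 8039 bp, and Rpl10l was again farthest at 774897 bp. The peak nearest to Hormad1 had a density of 3.81 in technical replicate 7 and 1.66 in technical replicate 1, both above the library's median. The peak nearest to Ddx4 had a density of 0.284 in technical replicate 7, below the median, and another, in technical replicate 1, had 2.51, above it. Taking for each member the nearer of the libraries' nearest peaks, the farthest were Gm3020, Gm21953, Gm3488, Gm10409 and Rpl10l. The first 4, all with mostly repeated windows, lay 602353, 440582, 377570 and 362937 bp from that peak.

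**Figure D4:**
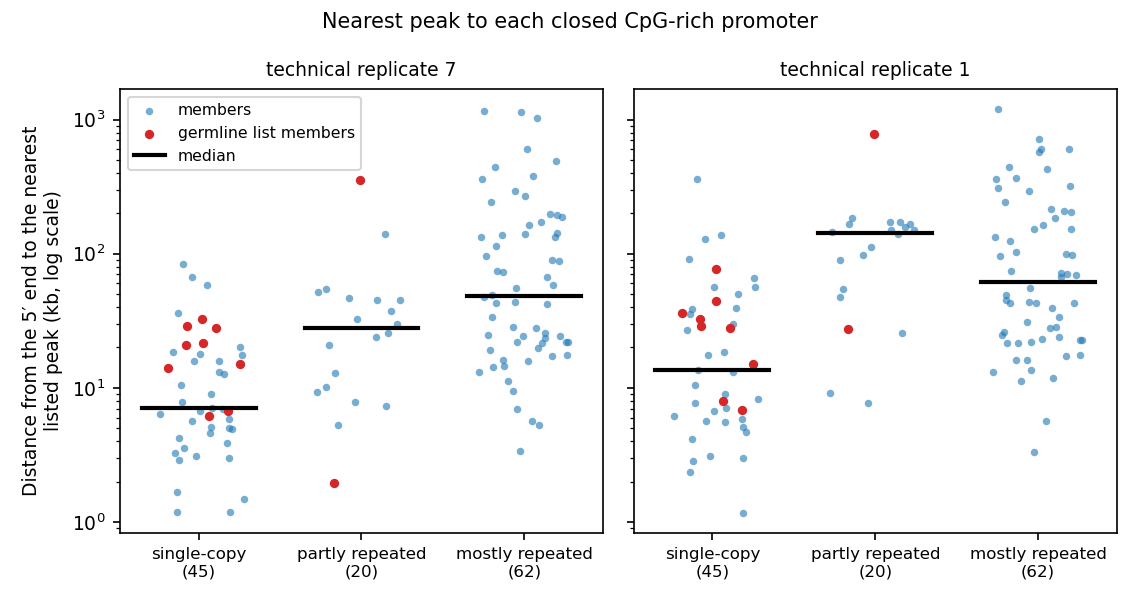
Each point is 1 member, by the distance from its 5′ end to the nearest listed peak (y axis, kb, log scale) in technical replicate 7 (left) and technical replicate 1 (right), split by repeated sequence, with black bars at the medians and germline members in red. The medians rise from 7.03 kb in single-copy to 48.3 kb in mostly repeated members in technical replicate 7; in technical replicate 1 they are 13.6 kb and 61.2 kb, and highest, at 142 kb, in partly repeated members.

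The number of members depended on the longer list. Technical replicate 7 listed 109044 peaks and 127152 hotspots, technical replicate 1 listed 52984 and 50432; read depths are not given in the files. Of CpG-rich genes, 148 were without a peak or hotspot in technical replicate 7 and 262 in technical replicate 1. Thus 135 genes closed in technical replicate 1 were listed by technical replicate 7, and 21 the other way round. A hotspot alone kept 56 genes out of the members. A listed region at any annotated start made a gene open, and open CpG-rich genes had a median of 5 starts, members 2. The number of annotated starts thus enters every contrast of open and closed genes. Near the limits, the members Elavl3, Nkx2-1 and Kcnk9 had a listed region 1035, 1051 and 1054 bp from a start, and Six3, Prdm13 and Ap1m2, regulators of eye and brain and an adaptor subunit, were left out by one at 953, 942 and 929 bp. By CpG ratio the members just inside were Ly6k at 0.6006 and Plac9a and Plac9b at 0.6015, and the closed genes just outside were Gm13290 at 0.5995, Wdr20rt at 0.5983 and AC141477.1 at 0.5968.

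The tissue label was set against promoter peaks of marker genes. A start peak in at least 1 library was listed for 10 of 10 erythroid, 9 of 10 hepatoblast, 6 of 6 endothelial, 6 of 6 mesenchymal and 2 of 4 macrophage markers, and also for 5 of 6 neuronal and 4 of 4 striated muscle markers. Alb, the albumin gene, had none, and the neuronal marker without one was the member Elavl3. Peaks in both libraries were listed for 10 erythroid, 8 hepatoblast, 4 endothelial, 6 mesenchymal, 2 macrophage, 5 neuronal and 2 striated muscle markers. In at least 1 library, start peaks were thus listed for most markers of every class except macrophages, the neuronal and muscle classes included. Of all 20807 autosomal protein-coding genes, 9690 CpG-rich ones and 5608 of lower CpG content had a listed peak or hotspot. High counts were thus common among all genes, and no class was tested against them.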

How the data were processed

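DNase-seq of 1 biological sample was analysed as 2 technical replicates; there is 1 group, so no test was made. Coordinates are on mm10, per the labels. Which aligner and peak caller were used, and how reads that fit several places were handled, is not given in the sources used here. Per the file headers, the deposited peak lists give a signal, the highest DNase cut density, and the deposited hotspots a −log10 false discovery rate. The deposited footprints of technical replicate 1 carry a constant 0.01, read as a p-value threshold. That library also has deposited hotspots from an earlier run, which carry a score. It also has earlier deposited peak lists and a deposited list of positions with an FDR under 0.05.

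Genes and starts came from GENCODE release M21 (comprehensive), and bases from RefSeq GRCm38.p6. CpG ratio and GC content were computed in 1000 bp around the 5′ end, listed regions were sought 1000 bp to each side of every start with an overlap of 1 bp or more, and 36-base words were counted on both strands of the chromosomes. The word count was tested on simulated sequence. Shares have exact Clopper-Pearson 95% intervals. All depths are list sizes, since the files give no read totals.

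The members, the 11 gene lists (540 genes, 536 found), 37 symbol families and 14 motifs were chosen with earlier results of these data known. Named are all members of a list or family with 6 or fewer, otherwise the 4 with the highest CpG ratio; the 10 members of highest CpG ratio; the 10 with the most distal peaks; the 5 farthest from any peak of either library; the 8 largest clusters; and genes nearest the limits. Genes outside this rule were picked with their values in view, as were the germline motif comparison, the repeated limit of 50% and the alternatives with GENCODE's basic starts and with next genes that share no window. Alternatives changed the library, the lists, the window, the CpG and GC limits, the starts, the joining distance, the distal window and the repeated share. Python 3.11.15, numpy 2.4.6, pandas 2.3.3, scipy 1.17.1 and numba 0.67.0 were used.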

Additional observations from a re-analysis of the deposited data

Results flagged for a closer look

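Signal at members appeared in deposited lists of technical replicate 1 that did not choose them. These lists come from other processing of the same library, so they are not independent of the choice. Hotspots from an earlier run of technical replicate 1 overlapped the promoter windows of 19 members (15%), against 99.3% of open CpG-rich genes and 2.55% of closed genes of lower CpG content. Positions with an FDR under 0.05 lay in 20 members (15.7%), against 99.5% of open CpG-rich genes and 3.81% of closed genes of lower CpG content. Footprints of technical replicate 1, short protected stretches, lay in 9 members (7.09%), against 99.0% and 1.47%. The longer footprint list of technical replicate 7 overlapped none of the 127 members. It overlapped 99.5% of open CpG-rich genes and none of the closed genes of lower CpG content. Members and closed genes were both chosen for lack of listed regions in that library. Whether the lack of footprints follows from that choice cannot be told. In all, 22 members had signal in at least 1 of the lists of technical replicate 1 and 105 had none.

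Of the single-copy members 10 of 45 overlapped the earlier hotspots: Evx1, Ppm1n, Dbx1, Elavl3, Kcnk9, Hoxc9, Hoxc8, T, Pnldc1 and Skor2. None of the 11 germline list members did, and none of them held an earlier peak, a listed position or a footprint of technical replicate 1. For 11 genes a count of 0 allows up to 28.5% by the Clopper-Pearson interval, above the 22.2% of single-copy members with earlier hotspots. The 45 single-copy members include 9 of the 11, so the share without those 9 is higher and the margin narrower. The counts do not set the germline members apart. Pnldc1, of the piRNA pathway, is outside those lists, and Nkx2-1, the member from the list of neural and developmental factors, is not among the 10. Positions under the limit covered 1283 bp at Evx1, a homeobox gene of the spinal cord, 746 bp at Hoxc9, 730 bp at Dbx1, 380 bp at T, 362 bp at Kcnk9, 311 bp at Elavl3, 244 bp at Skor2 and 120 bp at Pnldc1. Among repeated members, 9 overlapped the earlier hotspots, among them Gm2974, Gm3264 and the neighbours Prr23a2 and Prr23a3.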

How the results depend on the processing

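Of 95 values computed under 17 other settings, 52 stayed within the main value's interval or within 1.5 times the main count, and 43 moved. No paired analysis was possible because there is 1 group. With either library alone, members numbered 148 to 262 (1.51% to 2.67% of CpG-rich genes), 28.6% to 36.5% were in clusters, 30.8% to 41.8% had a closed next gene, 39.3% to 59.5% had a distal peak, the median distance was 20 to 33.1 kb, Gm-numbered genes made up 20.2% to 33.1% and mostly repeated windows 24.4% to 44.6%. The shorter peak lists without hotspots gave 273 members (2.78%), with 22.3% in clusters, 27.3% with a closed next gene, 73.6% with a distal peak, a distance of 13.8 kb, 20.1% Gm-numbered and 23.4% mostly repeated. A CpG limit of 0.75 gave 32 members (0.539%), 68.8% with a distal peak, a distance of 17.3 kb, 18.8% Gm-numbered and a germline share of 5.56%. A GC content of 50% or more gave a closed share of 1.03%. Single-copy windows alone gave 45 members (0.489%), with 6.67% in clusters, 6.82% with a closed next gene, 93.3% with a distal peak, a distance of 7.03 kb and 2.22% Gm-numbered. Basic starts gave 180 members (1.83%), 30.0% in clusters, 33.1% with a closed next gene, 67.2% with a distal peak, a distance of 12.9 kb and 26.1% Gm-numbered. Joining at 200 kb put 51.2% in clusters. Distal windows of 20 and 100 kb gave 29.9% and 66.9%, and peaks shared by the libraries gave 35.4% at an overlap of 1 bp and 33.1% at 50%, with distances of 42.7 and 44.3 kb. Settings with fewer lists, starts or genes differ by construction; any other cause was not tested. The germline share stayed between 16.7% and 31.2% in all settings but the CpG limit of 0.75.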
